A study of Mus musculus with 39 samples.

Results

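The genes of the cornified envelope and of the desmosomes that hold keratinocytes together were examined in skin and in 3 internal organs of mice without perforin. They were taken by symbol: every gene whose symbol begins with Sprr, Flg or Tchh or with Lce or Dsg and a digit, the desmocollins Dsc1 to Dsc3, together with Lor, Ivl, Hrnr, Rptn and Cdsn. This gave 56 of the 52508 genes in the skin table, and 37 of these were among the 14224 genes that passed the expression filter. The other 19 had too few counts to be tested, and Sprr2c-ps had 0 counts in every skin library. By role the 56 genes were 21 late cornified envelope (Lce) genes, 17 small proline-rich (Sprr) genes, 6 S100-fused genes, loricrin and involucrin, and 10 desmosomal genes including Cdsn. The table of kidney, liver and lung held 54 of them among 24537 genes.

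All mice were Prf1-/- on the C57BL/6 strain, so that the killing of target cells by cytotoxic lymphocytes through perforin was missing in every group. Young mice were killed at 3 months and had no treatment. Vehicle mice were killed at 20 months after intraperitoneal injections of the solvent, and ABT-737 mice at 20 months after ABT-737, an inhibitor of BCL-2 family proteins, at 25 mg/kg on 2 consecutive days a month for 2 months from 18 months of age. Each group had 3 skin libraries. Kidney, liver and lung each had 4 Young, 3 Vehicle and 3 ABT-737 libraries, which made 39 libraries in all. The replicates of the old groups are numbered 3, 4 and 5, as in the labels. In every tissue the drug is given as ABT-737 for replicate 3 but as ABT-738 and ABT-739 for replicates 4 and 5, which were placed in the ABT-737 group by their titles. The question was how expression changed in old perforin-deficient mice and after a drug given to remove senescent cells. Young mice were not injected, so age and the vehicle injections cannot be told apart, and no mouse with perforin was sequenced. The labels call replicates biological but do not tie libraries of different tissues to one mouse.

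The outermost layer of the epidermis is made of dead keratinocytes whose plasma membrane has been replaced by a cornified envelope, a sheet of proteins that transglutaminases cross-link to each other. Involucrin and the desmosomal plaque are laid down first, and loricrin, the Sprr proteins and the Lce proteins are added as the cell matures. The S100-fused proteins sit between the envelope and the keratin bundles: filaggrin is released from a precursor, packs keratin and is then degraded to moisture-retaining products, while trichohyalin hardens the inner root sheath of the hair follicle. Desmogleins (Dsg) and desmocollins (Dsc) are the cadherins of desmosomes, and corneodesmosin (Cdsn) modifies desmosomes in the cornified layer. In the skin libraries suprabasal keratins and other differentiation genes summed to between 13300 and 43300 CPM, so that epidermal RNA was present as the tissue label says. Skeletal muscle markers summed to between 9610 and 91300 CPM in the same libraries, so that muscle RNA was present too. Young 1 held 91300 CPM of the muscle markers against 13300 CPM of the suprabasal list. CPM stands for counts scaled to the same total in each library after TMM normalization. In bulk tissue, fewer cells of a type and less RNA per cell cannot be told apart.

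By their positions in the skin file, 46 of the genes lay within 1.4 Mb of chromosome 3, the epidermal differentiation complex. The desmogleins and desmocollins form a separate cluster, and Cdsn lay on chromosome 17. The 250 bases before the start of transcription were read for the 43 of the 56 genes that had an entry in the RefSeq promoter table (GRCm38.p6). The AP-1 motif TGANTCA, searched on both strands, was present in 15 of 43 (34.9%), against 6.75% of all 32851 promoters. It stood in the promoters of both Lor and Ivl, in 7 of 10 Sprr2 genes, in 4 of 6 S100-fused genes and in 2 of the other 4 Sprr genes, and in 0 of 14 Lce1 and Lce6 genes and 0 of 6 Lce3 genes. The letters TATAAA stood in 44.2% of these promoters against 12.4% of all, and AGGAAG, the core of many ETS sites, in 53.5% against 29.5%. A STAT-type motif, TTCNNNGAA, was as frequent in them (6.98%) as in all promoters (7.02%). Many of these promoters are related by duplication. Those of Sprr2d and Sprr2e were identical at 89.3% of bases and those of Lce1g and Lce1i at 85.6%, so that shared motifs are not independent. Other pairs were less alike, with Sprr2d and Sprr2h at 65% and Lce3e and Lce3f at 61%.

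6 promoters are shown 5′ to 3′ on the strand of the gene, with TGANTCA in capitals, because they hold the contrast between loricrin, involucrin, filaggrin and the Sprr2 genes on one side and the Lce1 genes on the other. Lor was read at chr3:92083143-92083392 on the minus strand. Ivl was read at chr3:92573736-92573985 on the minus strand. Flg was read at chr3:93273296-93273545 on the plus strand. Sprr2d was read at chr3:92338890-92339139 on the plus strand. Sprr2e was read at chr3:92351893-92352142 on the plus strand. Lce1g was read at chr3:92752339-92752588 on the minus strand. The first base of the motif lay 48 bases before the start in Lor, 116 in Ivl, 103 in Flg and 193 in both Sprr2d and Sprr2e.
Lor: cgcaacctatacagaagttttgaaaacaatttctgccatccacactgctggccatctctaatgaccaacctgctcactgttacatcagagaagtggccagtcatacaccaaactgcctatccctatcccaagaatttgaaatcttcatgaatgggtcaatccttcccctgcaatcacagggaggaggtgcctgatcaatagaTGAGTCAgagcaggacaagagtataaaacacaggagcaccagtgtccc
Ivl: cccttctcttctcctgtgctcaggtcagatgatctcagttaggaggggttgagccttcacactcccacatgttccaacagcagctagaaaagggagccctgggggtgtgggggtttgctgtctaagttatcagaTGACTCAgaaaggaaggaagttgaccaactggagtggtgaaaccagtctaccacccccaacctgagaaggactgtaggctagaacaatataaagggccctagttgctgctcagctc
Flg: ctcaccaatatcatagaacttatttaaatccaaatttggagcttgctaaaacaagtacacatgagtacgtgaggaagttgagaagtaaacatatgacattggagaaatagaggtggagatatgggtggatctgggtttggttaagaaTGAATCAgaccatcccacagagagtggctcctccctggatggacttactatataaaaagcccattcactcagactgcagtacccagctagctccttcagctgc
Sprr2d: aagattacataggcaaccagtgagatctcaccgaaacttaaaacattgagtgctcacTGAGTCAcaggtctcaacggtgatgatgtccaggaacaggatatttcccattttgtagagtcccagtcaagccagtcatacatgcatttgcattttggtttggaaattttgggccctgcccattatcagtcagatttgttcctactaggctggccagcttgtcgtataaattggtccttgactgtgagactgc
Sprr2e: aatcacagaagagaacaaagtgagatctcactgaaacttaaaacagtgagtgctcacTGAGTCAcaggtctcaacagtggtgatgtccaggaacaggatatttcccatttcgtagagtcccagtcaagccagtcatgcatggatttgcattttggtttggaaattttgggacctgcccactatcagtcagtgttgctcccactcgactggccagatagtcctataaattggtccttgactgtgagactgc
Lce1g: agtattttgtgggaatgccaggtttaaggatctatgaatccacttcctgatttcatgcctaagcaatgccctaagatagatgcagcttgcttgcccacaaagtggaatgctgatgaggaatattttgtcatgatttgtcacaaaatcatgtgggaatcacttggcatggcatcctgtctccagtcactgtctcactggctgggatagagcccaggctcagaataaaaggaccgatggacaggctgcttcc

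Lor and Flg thus carry the motif within 103 bases of the start, whereas the window of Lce1g does not hold it. These are matches of letters in a window and were not tested as binding sites.

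Skin libraries had totals of 1493411 to 3842808 counts (median 2485280), so that 3 counts, taken as the floor, equalled 0.778 to 2.17 CPM. The biological coefficient of variation was 34.9%. Some libraries stood apart, and they are given first because most values below depend on them. Vehicle 5 held the highest level of 43 of the 56 genes, among them 19 of 21 Lce and 14 of 17 Sprr genes. Its summed level of activated keratinocyte genes (Krt6a, Krt16, S100a8 and others) was 20900 CPM against 1460 to 4350 CPM in the other 8 libraries, and its skeletal muscle markers summed to 9610 CPM against 16000 to 91300 CPM. Vehicle 3, ABT-737 4 and ABT-737 5 held 9810, 23200 and 18800 CPM of inner root sheath markers, whereas the other 6 libraries held 6.33 to 811 CPM. Hair shaft markers showed the same 3 libraries high, at 3910 to 11000 CPM against 60.9 to 288 CPM. The part of these differences in the results below was not tested.

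**Figure D1:**
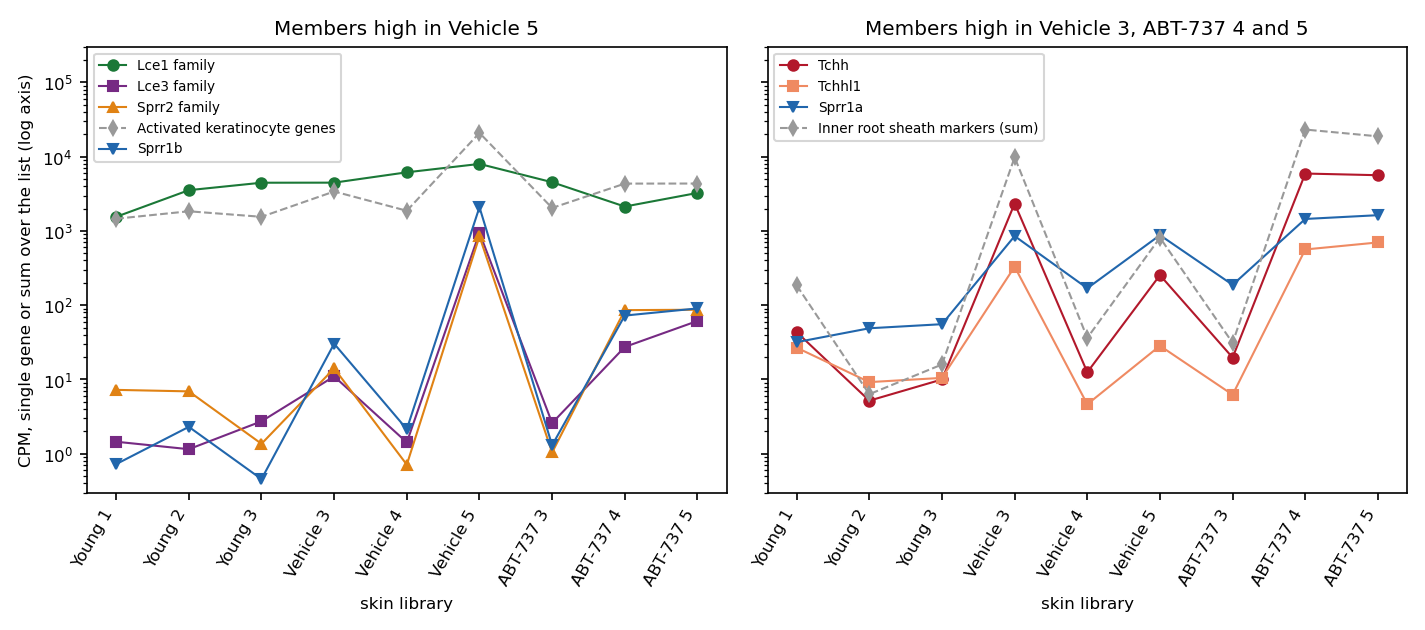
CPM (log axis) in each of the 9 skin libraries, as sums for the Lce1, Lce3 and Sprr2 families and Sprr1b beside activated keratinocyte genes (left), and for Tchh, Tchhl1 and Sprr1a beside summed inner root sheath markers (right). Lines join the points of 1 gene or list only to guide the eye. On the left Vehicle 5 is the highest for every line. On the right Vehicle 3, ABT-737 4 and ABT-737 5 are high, and the Sprr1a line is high in Vehicle 5 as well.

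Between young and old vehicle-treated skin, envelope genes were higher in old skin. Of the 37 genes tested, 13 rose and 0 fell (edgeR's quasi-likelihood test, Benjamini-Hochberg adjusted p under 0.05), against 5.84% of all genes that rose, 5.35% that fell and 11.2% that changed in either direction. At an unadjusted p under 0.05, 27 of the 37 were higher and 0 lower, against 16.8% of all genes higher and 15% lower. The median log2 fold change was 2.09 over the 37 genes and 0.05 over all genes. It was 1.97 when the 3 genes at the floor in young skin were set to the smallest fold that 3 counts allow. Rptn, Sprr1b, Sprr2h, Lce3c, Lce3d and Dsg4, all low in young skin, passed the expression filter through old libraries alone. Such genes could only come out higher in old skin. They are among the 37, and their part in these counts and in the median was not tested. In 22 of the 37 genes every Vehicle library was above every Young library, which held for 19.5% of all genes, and in 1, Dsg3, every Vehicle library was below, which held for 20.1%.

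The calls were sensitive to single libraries. Without Vehicle 5, 4 genes rose, Sprr4, Lce1g, Flg and Lce1e, and Dsg3 fell, where 1.3% of all genes rose. Without Young 1 or without Young 2 no member passed, at 19 and 18 members with an unadjusted p under 0.05, and the calls over all genes went from 1592 to 39 and 41. The share of all genes at that unadjusted p is not given for these fits. Without Young 3, 4 members passed, where 2.54% of all genes rose. Without ABT-737 5, which enters through the shared estimate of the spread, 8 passed, where 3.76% of all genes rose. The calls over all genes thus fell in the same fits as those of the members.

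**Figure D2:**
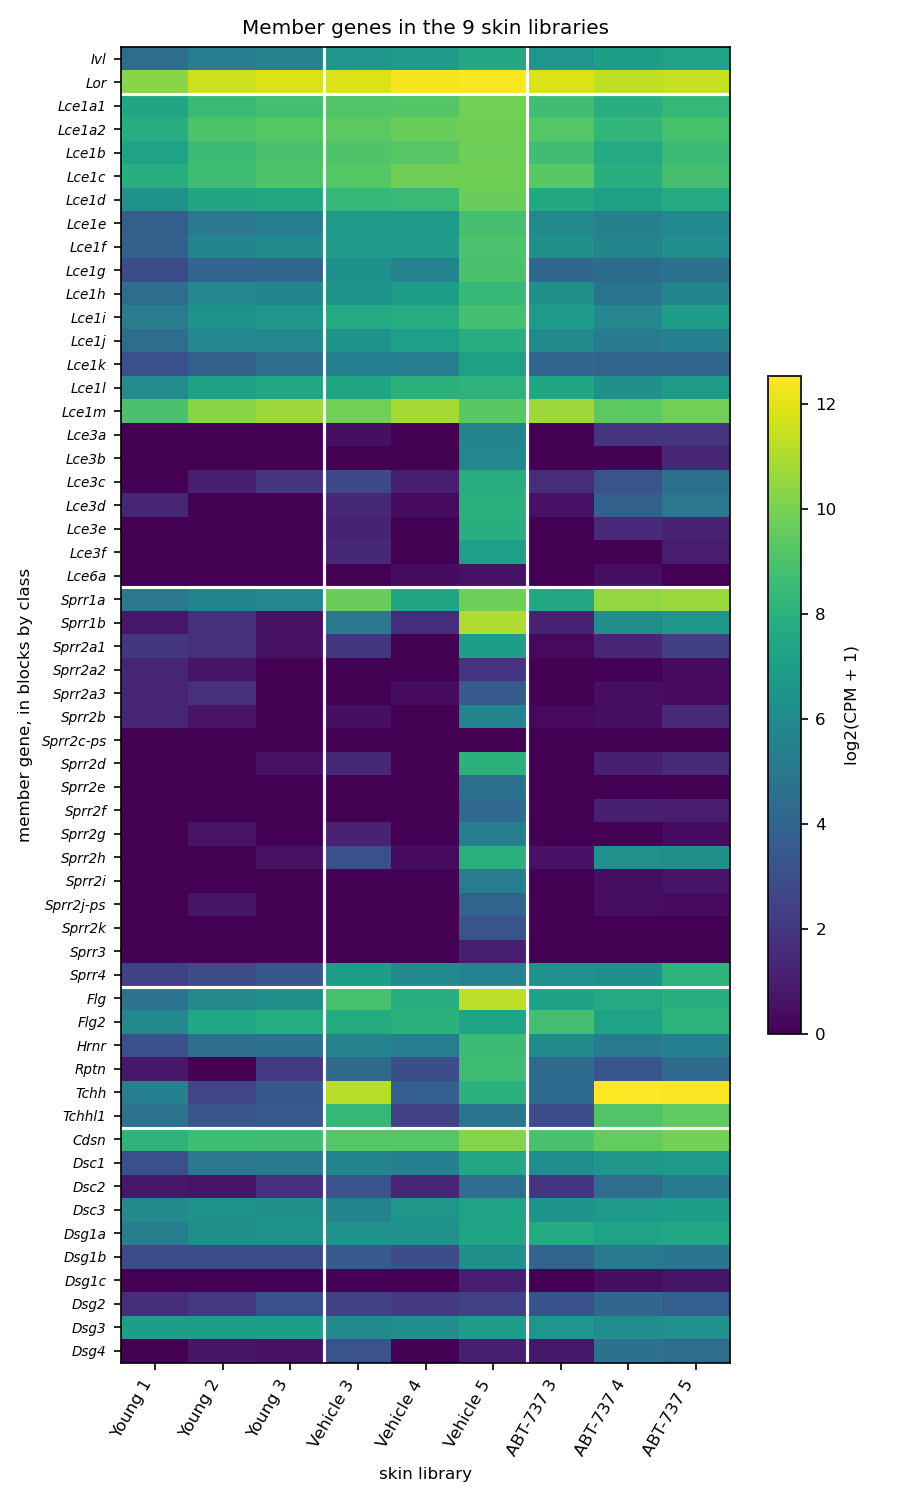
Level of the members (rows, grouped by role) in the 9 skin libraries (columns, by group), as log2(CPM + 1). The Vehicle 5 column is the brightest for most Lce and Sprr rows, and Tchh and Tchhl1 are bright in Vehicle 3, ABT-737 4 and ABT-737 5.

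Involucrin, an early scaffold of the envelope, rose in old skin. Its levels were 22.4, 39.7 and 48.2 CPM in Young libraries 1 to 3, 95.4, 104 and 190 CPM in Vehicle libraries 3 to 5, and 95, 127 and 149 CPM in ABT-737 libraries 3 to 5. Every old library was above every young one. The log2 fold change between Vehicle and Young was 1.81 (SE 0.36, adjusted p = 0.0189) and without Vehicle 5 it was 1.43 (adjusted p = 0.0538). Loricrin, the main protein of the mature envelope, was at 1260, 3030 and 3610 CPM in Young, 3810, 5250 and 5520 CPM in Vehicle and 3670, 2610 and 2770 CPM in ABT-737 skin. The Vehicle libraries lay above both other groups, and the Young 1 library was below the other 8. The difference between Vehicle and Young, 0.88 on the log2 scale (SE 0.37, adjusted p = 0.135), did not pass the test.

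**Figure D3:**
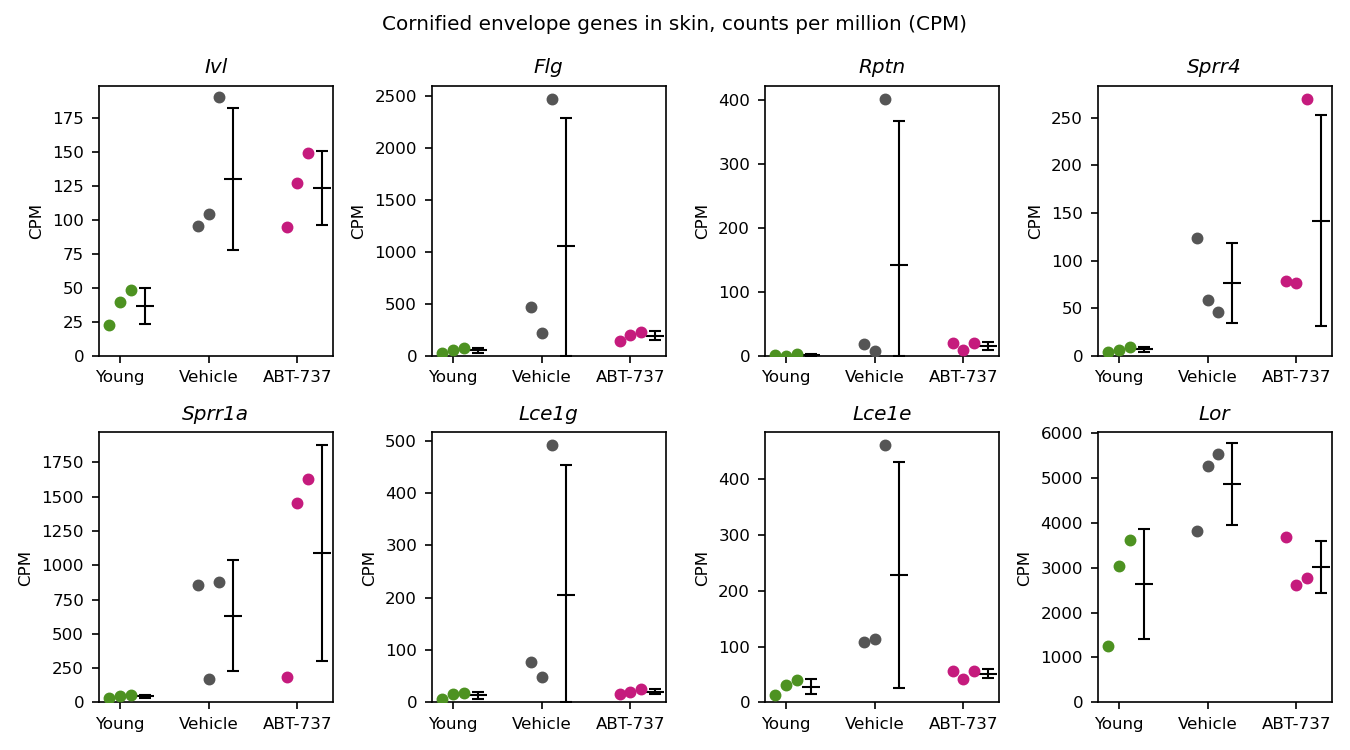
CPM of 8 members in each skin library (points) by group, with the mean and SD of 3 libraries (bars, with the lower end cut at 0). Involucrin and Sprr4 do not overlap between Young and old groups, while the Vehicle spread of Flg, Rptn and Lce1g comes from the high Vehicle 5 library.

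The Lce genes encode short proteins that are joined to the envelope late in its assembly. Of the 16 Lce genes tested 8 rose, all of the Lce1 group, and the median log2 fold change of the 16 was 1.88. The 8 were Lce1d, Lce1e, Lce1f, Lce1g, Lce1h, Lce1i, Lce1j and Lce1k, with log2 fold changes of 1.75 to 3.92. Lce1g was at 6.51, 16.1 and 17.3 CPM in Young, 77.3, 48.8 and 491 CPM in Vehicle and 16.6, 20.4 and 25.0 CPM in ABT-737 skin. All 3 Vehicle libraries lay above all others, with Vehicle 5 far above the other pair. Its log2 fold change was 3.92 (SE 0.85, adjusted p = 0.0247), and without Vehicle 5 it was 2.21 (adjusted p = 0.0382). Lce1e was at 13.0, 31.1 and 40.5 CPM in Young, 108, 114 and 461 CPM in Vehicle and 56.0, 42.7 and 56.1 CPM in ABT-737 skin. Here Vehicle 3 and Vehicle 4 were close to each other and above both other groups, and the ABT-737 libraries lay between. Between Vehicle and Young the log2 fold change was 3.00 (SE 0.62, adjusted p = 0.0209), and 1.96 without Vehicle 5 (adjusted p = 0.0418).

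Lce1k was at 7.24, 13.2 and 22.3 CPM in Young, 44.4, 39.9 and 138 CPM in Vehicle and 15.8, 15.3 and 16.5 CPM in ABT-737 skin, with a log2 change of 2.34 (SE 0.53, adjusted p = 0.0279). Lce1i was at 36.9, 86.9 and 96.0 CPM in Young, 204, 219 and 439 CPM in Vehicle and 118, 55.6 and 124 CPM in ABT-737 skin. Its log2 fold change was 1.97 (SE 0.46, adjusted p = 0.0301). In both, the ABT-737 libraries overlapped the Young ones. Without Vehicle 5 neither passed, at 1.53 (adjusted p = 0.062) for Lce1k and 1.53 (adjusted p = 0.0894) for Lce1i. The other 4 had smaller differences without that library and were not called, at log2 fold changes of 1.16 for Lce1d, 1.30 for Lce1j, 1.32 for Lce1h and 1.44 for Lce1f.

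The Lce1 genes with the highest counts differed less between the groups. Lce1m was at 495, 1250 and 1660 CPM in Young, 920, 1810 and 646 CPM in Vehicle and 1670, 666 and 928 CPM in ABT-737 skin. The 3 groups overlapped, and the log2 fold change was -0.02 (SE 0.53, adjusted p = 0.987). Lce1a1, Lce1a2, Lce1b and Lce1c had log2 fold changes of 0.82 to 1.13 with adjusted p of 0.0822 to 0.159, although every Vehicle library of each was above every Young one. The summed Lce1 genes were at 1550, 3540 and 4460 CPM in Young, 4470, 6160 and 7990 CPM in Vehicle and 4530, 2130 and 3250 CPM in ABT-737 skin. Fitted as 1 feature, this sum had a log2 change of 0.95 (SE 0.42, adjusted p = 0.159) and did not pass. The last 300 bases of the Lce1 transcripts, where 3′-end reads fall, were each identical to the nearest relative at a median of 79.3% of bases, and at 91.1% between Lce1h and Lce1i, and reads of such pairs may be split between the genes.

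The Lce3 genes, which are known for induction in wounded and inflamed epidermis, were near the floor in young skin and highest in Vehicle 5. Their summed level was 1.45, 1.15 and 2.73 CPM in Young, 11, 1.42 and 947 CPM in Vehicle and 2.59, 27.4 and 61.3 CPM in ABT-737 skin. Lce3e was at 0 in all Young libraries, at 1.32, 0 and 240 CPM in Vehicle and at 0, 1.96 and 1.22 CPM in ABT-737 skin. The level of Lce3e in Vehicle 5 rested on 869 counts. The mean of Vehicle was at least 45.8-fold higher than 3 counts per library would give in Young, and Vehicle 5 alone set that mean. Of the 6, Lce3c and Lce3d passed the expression filter, and the sum of the 6 had a log2 change of 7.39 (SE 2.33, adjusted p = 0.0674).

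Of the S100-fused genes filaggrin and repetin rose, 2 of 6, and the median of the 6 was 3.70. Filaggrin was at 26.0, 59.3 and 76.0 CPM in Young, 472, 222 and 2470 CPM in Vehicle and 145, 199 and 231 CPM in ABT-737 skin. The old libraries were all above the young ones, and Vehicle 4 was below ABT-737 5. For Vehicle against Young the log2 fold change was 4.29 (SE 0.86, adjusted p = 0.0197), and 2.68 without Vehicle 5 (adjusted p = 0.0382). Repetin, a minor envelope protein, was at 0.724, 0 and 3.18 CPM in Young, 19.3, 7.12 and 402 CPM in Vehicle and 19.5, 9.01 and 20.1 CPM in ABT-737 skin. Its groups did not overlap between young and old, and Vehicle 3 and 4 were close to the ABT-737 libraries. Its log2 fold change of 6.57 (SE 1.68, adjusted p = 0.0374) was 3.13 without Vehicle 5 (adjusted p = 0.0817).

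Hornerin, a relative of filaggrin, was at 7.24, 21.3 and 24.6 CPM in Young, 47.5, 37.7 and 385 CPM in Vehicle and 60.2, 34.9 and 44.8 CPM in ABT-737 skin. All old libraries exceeded all young ones, at a log2 change of 3.12 (SE 0.88, adjusted p = 0.0506) that missed the threshold and was 1.24 without Vehicle 5 (adjusted p = 0.137). Flg2, another filaggrin relative, overlapped across the 3 groups, at 57.2, 184 and 219 CPM, then 210, 267 and 153 CPM, then 442, 149 and 276 CPM in Young, Vehicle and ABT-737 skin. Its log2 fold change was 0.45 (SE 0.51, adjusted p = 0.566).

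Trichohyalin was high in the libraries that were high for hair follicle markers. It was at 43.4, 5.18 and 10 CPM in Young, 2340, 12.5 and 254 CPM in Vehicle and 19.7, 5930 and 5630 CPM in ABT-737 skin. Vehicle 3, ABT-737 4 and ABT-737 5, the 3 libraries with the highest inner root sheath sums, were also the 3 highest for Tchh. Between Vehicle and Young the log2 fold change was 5.5 with an SE of 2.10 (adjusted p = 0.111), and without Vehicle 3 it was 2.79. Tchhl1 had the same 3 libraries highest, at 330, 563 and 700 CPM against 4.63 to 28.4 CPM in the other 6, and its adjusted p was 0.237.

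Of the Sprr genes, whose products bridge other envelope proteins, Sprr4 and Sprr1a rose, 2 of the 4 tested. Sprr4 was at 4.34, 6.33 and 9.55 CPM in Young, 124, 59.1 and 46.3 CPM in Vehicle and 79.1, 76.8 and 270 CPM in ABT-737 skin. Every old library was above every young one, and Vehicle 5 was the lowest old library for this gene. Its log2 fold change of 3.46 (SE 0.64, adjusted p = 0.0167) was 3.72 without Vehicle 5 (adjusted p = 0.039). Sprr1a was at 31.8, 48.9 and 55.5 CPM in Young, 853, 169 and 878 CPM in Vehicle and 188, 1450 and 1630 CPM in ABT-737 skin. Again the old libraries were all above the young ones, with Vehicle 4 and ABT-737 3, 2 of the libraries low in inner root sheath markers, at the lower end. It rose by 3.8 on the log2 scale (SE 0.85, adjusted p = 0.0263), and without Vehicle 5 it was 3.49 (adjusted p = 0.0728).

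Sprr1b, a further cross-bridging protein and a marker of squamous stress responses, was at 0.724, 2.30 and 0.455 CPM in Young, 30.3, 2.14 and 2090 CPM in Vehicle and 1.30, 72.5 and 90.5 CPM in ABT-737 skin. Vehicle 4 and ABT-737 3 were within the young range, and Vehicle 5 was far above. The fitted log2 fold change of 9.22 (SE 2.70, adjusted p = 0.0563) did not pass and was 3.75 without Vehicle 5 (adjusted p = 0.261). Its model overlapped that of Sprr2k on the other strand, but only in the 2000 bases that both models reach past their annotated 3′ ends. Whether strand was used in counting is not given in the sources used here, so reads of this pair that fall in the overlap cannot be told apart.

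The Sprr2 genes had the same shape as Lce3. Their sum was 7.24, 6.91 and 1.36 CPM in Young, 14.1, 0.712 and 845 CPM in Vehicle and 1.04, 85.8 and 86.9 CPM in ABT-737 skin. Sprr2d was at 0, 0 and 0.455 CPM in Young, 1.76, 0 and 264 CPM in Vehicle and 0, 1.18 and 1.83 CPM in ABT-737 skin, so that Vehicle 5 alone was clearly above the floor. Sprr2h, the one Sprr2 gene that passed the filter, was also at 80.3 and 76.5 CPM in ABT-737 4 and 5, against 249 CPM in Vehicle 5 and 0 to 7.47 CPM elsewhere. Fitted as 1 feature the Sprr2 sum had a log2 change of 5.83 (SE 2.23, adjusted p = 0.111). Sprr2a1 and Sprr2a2 were identical over the last 300 bases, and Sprr2a3 was 99% identical to them, so counts of these genes are uncertain. Fitted fold changes of genes at the floor in young skin depend on the prior count.

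Of the 9 desmosomal genes tested 0 passed by edgeR and 4 had an unadjusted p under 0.05, all higher, with a median of 1.14 (0.85 with Dsg4 at the fold that the floor allows). DESeq2 called 4 of them, Cdsn, Dsc1, Dsc2 and Dsg1b. The share of all genes that DESeq2 called is not given for this comparison, so these calls do not show a change particular to desmosomal genes. Corneodesmosin was at 282, 405 and 408 CPM in Young, 603, 608 and 1200 CPM in Vehicle and 485, 758 and 958 CPM in ABT-737 skin. All old libraries were above all young ones, at a log2 change of 1.14 (SE 0.35, adjusted p = 0.0639), and 0.73 without Vehicle 5. Dsc1, the desmocollin of the upper epidermis, was at 7.24, 31.1 and 35.9 CPM in Young, 50.1, 43.8 and 176 CPM in Vehicle and 68.2, 98.7 and 114 CPM in ABT-737 skin, again without overlap (1.84, SE 0.64, adjusted p = 0.0862, and 0.90 without Vehicle 5). Dsg1a, a desmoglein of the differentiated layers, was at 42.0, 74.8 and 86.0 CPM in Young, 84.8, 79.0 and 170 CPM in Vehicle and 200, 150 and 180 CPM in ABT-737 skin. Its Vehicle libraries overlapped the Young ones, and its ABT-737 libraries did not.

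Dsg3, the desmoglein of the basal layers, was the one member with every Vehicle library below every Young one. It was at 131, 128 and 129 CPM in Young, 58.9, 70.5 and 128 CPM in Vehicle and 91.6, 72.1 and 81.1 CPM in ABT-737 skin. The log2 fold change of -0.59 (SE 0.27, adjusted p = 0.173) did not pass with all libraries, and without Vehicle 5, whose level lay just under the young ones, it was -0.99 (adjusted p = 0.041). Basal keratinocyte markers summed to 18100, 18900 and 15100 CPM in Young and to 9890, 10600 and 18300 CPM in Vehicle skin, so that Vehicle 5 was high for them too. Dsc3, also a cadherin of the lower layers, overlapped between the groups (0.43, SE 0.36, adjusted p = 0.44). Dsg1b, Dsc2 and Dsg4 were each higher in some old libraries, with log2 fold changes of 2.31, 3.02 and 2.81 and adjusted p of 0.104, 0.134 and 0.361. Without Vehicle 5 the difference was 0.46 for Dsg1b (adjusted p = 0.544) and 1.84 for Dsc2 (adjusted p = 0.426). Dsg4, a desmoglein of the hair shaft, was at 8.35, 25.1 and 21.6 CPM in Vehicle 3, ABT-737 4 and ABT-737 5 and at 0 to 1.10 CPM in the other 6.

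**Figure D4:**
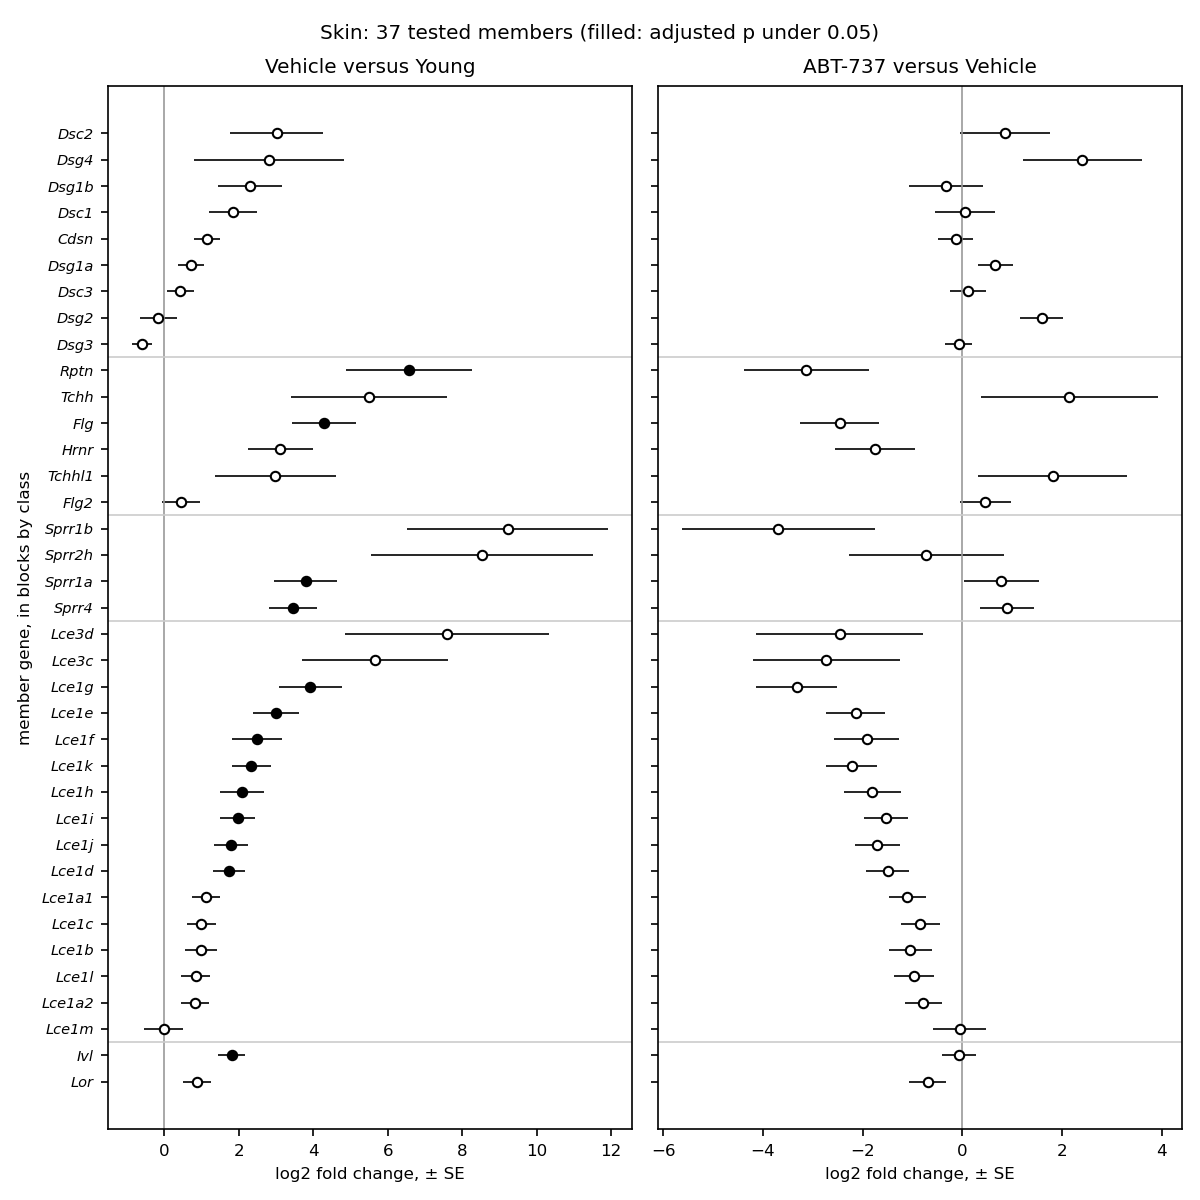
Log2 fold change of each of the 37 tested members in skin (points, with the SE as bars) for Vehicle against Young (left) and ABT-737 against Vehicle (right), in blocks by role. Filled points have an adjusted p under 0.05, which are 13 on the left and 0 on the right, and all 16 Lce points on the right lie below 0.

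Between ABT-737 and Vehicle skin the Lce genes leaned lower with the drug, but no member passed the test. Of the 37 genes 0 were called, as were 0% of all genes tested (edgeR's quasi-likelihood test). At an unadjusted p under 0.05, 13 members were lower and 1, Dsg2, was higher, against 4.57% and 3.4% of all genes. DESeq2 called 4 members lower, Lce1e, Lce1g, Lce1j and Lce1k, among 58 genes it called in all. The median log2 fold change was -0.78 over the members and 0.04 over all genes. In 13 members every ABT-737 library was below every Vehicle library, against 5.81% of all genes, and in 1 every ABT-737 library was above, against 5.74%. This comparison shares its Vehicle libraries with the one above.

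All 16 Lce genes had a negative log2 fold change, with a median of -1.62, and 11 of them had an unadjusted p under 0.05. Lce1g, at a mean of 206 CPM in Vehicle (SD 248, n = 3) and 20.7 CPM in ABT-737 skin (SD 4.2, n = 3), had a log2 change of -3.32 (SE 0.81, adjusted p = 0.476). For Lce1k it was -2.22 (SE 0.51, adjusted p = 0.476). In both, the 3 ABT-737 libraries lay close together and below all 3 Vehicle libraries. The smallest adjusted p of any member was 0.476. Lce1m again stood apart from the other Lce1 genes, at -0.05 (SE 0.53). Without Vehicle 5, 14 of the 16 Lce genes were negative, the median was -0.86, and 6 members had an unadjusted p under 0.05 and were lower. The median over all members went from -0.78 to 0.28. The share of all genes at that unadjusted p and their median are not given for this fit.

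The other roles were mixed in this comparison. Filaggrin had a log2 change of -2.46 (SE 0.79, adjusted p = 0.487) and repetin of -3.13 (SE 1.25, adjusted p = 0.587), and without Vehicle 5 these were -0.86 and 0.31. Loricrin was lower in every ABT-737 library than in every Vehicle library, by -0.69 on the log2 scale (SE 0.37, adjusted p = 0.687). Involucrin was at -0.07 (SE 0.34) and corneodesmosin at -0.13 (SE 0.35), with overlapping libraries. Sprr4 and Sprr1a were at 0.90 (SE 0.54) and 0.78 (SE 0.75). Dsg2, a desmoglein found in simple epithelia and in the follicle, was at 4.39, 3.2 and 4.41 CPM in Vehicle and 7.78, 16.5 and 12.5 CPM in ABT-737 skin. Its libraries did not overlap, at 1.59 (SE 0.44, adjusted p = 0.476).

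Between ABT-737 and Young skin 3 of the 37 genes rose, Sprr4, Sprr1a and Ivl, against 2% of all genes that rose, 3.17% that fell and 5.17% called in either direction. At an unadjusted p under 0.05, 14 members were higher and 1 lower, against 16.8% and 13.3% of all genes. The members that passed the filter through old libraries alone are among the 37 here too. In 16 members every ABT-737 library was above every Young library and in 1 every one was below, against 18.7% and 17.7% of all genes. The log2 fold changes were 4.35 for Sprr4 (SE 0.66, adjusted p = 0.0158), 4.58 for Sprr1a (SE 0.88, adjusted p = 0.0292) and 1.73 for Ivl (SE 0.36, adjusted p = 0.0319). The Lce genes had a median of 0.20, and 0 of 16 had an unadjusted p under 0.05. In the desmosomal class 8 of 9 were higher in every ABT-737 library than in every Young one, with a median of 1.43, and 7 had an unadjusted p under 0.05, yet 0 were called by edgeR, and DESeq2 called Dsg1a, Dsc1, Dsc2 and Dsg4. Dsg1a came closest by edgeR, at 1.38 (SE 0.35, adjusted p = 0.0545). The share of all genes that DESeq2 called is not given for this comparison, so its calls do not show a change particular to desmosomal genes. Without any 1 of the Young libraries, or without ABT-737 5, 0 members were called and 10 had an unadjusted p under 0.05, and 1 gene was called without ABT-737 4. Without Vehicle 5 or ABT-737 3 there were 9 and 10 calls, with Dsg3 lower in the former. The share of all genes is not given for these fits, so the counts do not show a wider or narrower change of the members.

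Some of the enzymes that build and shed the envelope were higher in old vehicle-treated skin as well. Most of these calls were lost when Vehicle 5 or any 1 of the Young libraries was left out. The share of all genes that rose fell in these fits too, to 1.3% without Vehicle 5. It was 0.0667%, 0.0467% and 2.54% without Young 1, Young 2 and Young 3. Of the 22 tested cross-linking enzymes, proteases and inhibitors 5 rose, where 5.84% of all genes rose and 5.35% fell: the kallikreins Klk10 (log2 fold change 3.84, adjusted p = 0.00621), Klk7 (1.61, adjusted p = 0.0365) and Klk6 (6.08, adjusted p = 0.0368), members of a protease family that sheds corneodesmosomes, and Asprv1 (2.26, adjusted p = 0.0264) and Casp14 (3.76, adjusted p = 0.0491), which process filaggrin. Klk10 was at a mean of 200 CPM in Vehicle and 13.8 CPM in Young skin. The list had a median of 1.67, against 0.05 over all genes. The summed list was at 932 to 1880 CPM in Young and at 3820, 3000 and 8270 CPM in Vehicle skin, highest in Vehicle 5. Without Vehicle 5, Klk10 (3.81, adjusted p = 0.0245) was the one gene called and the median was 1.17, while 1.3% of all genes rose. Tgm1, the transglutaminase that joins envelope proteins at the membrane, was at 0.63 (SE 0.72, adjusted p = 0.57). Of 25 barrier lipid genes 7 rose, with a median of 1.21, among them Cyp4f39 (1.54, adjusted p = 0.0136) and Elovl4 (2.59, adjusted p = 0.0356), which act on the very long acyl chains of acylceramides, Pnpla1 (1.52, adjusted p = 0.0383), which transfers linoleate to them, and Sptlc1 (1.32, adjusted p = 0.017), of the first step of sphingolipid synthesis. Without Vehicle 5, Cyp4f39 alone of the 25 was called, at 1.39 (adjusted p = 0.043).

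Of 26 suprabasal keratin and differentiation genes 3 rose, Calm4, Cnfn and Fabp5, with log2 fold changes of 2.12, 2.14 and 3.37, and the median was 1.03. This was 3 of 26 against the 5.84% of all genes that rose, and 0 were called without Vehicle 5, with 8 higher at an unadjusted p under 0.05 and a median of 0.69. The share of all genes at that unadjusted p is not given for that fit. Among 24 transcription factors of keratinocyte differentiation Zfp750 (1.54, adjusted p = 0.0131), Prdm1 (1.80, adjusted p = 0.0242) and Grhl1 (1.02, adjusted p = 0.0293) rose and Grhl2 fell (-1.45, adjusted p = 0.0146), with a median of 0.25. These 4 of 24 stand against 11.2% of all genes that changed, and without Vehicle 5 Prdm1 was at 1.74 (adjusted p = 0.07) and the other 3 were called. Zfp750 and Prdm1 are regulators of terminal differentiation, and Grhl1 is a regulator of desmosomal cadherins. Of the 9 plaque and plakin partners of the desmosome Plec fell (-0.82, adjusted p = 0.0319) and 0 rose. The 6 tested activated keratinocyte genes had a median of 2.46 and 0 calls, with 5 at an unadjusted p under 0.05. Krt6a was at 2.61 (SE 0.96, adjusted p = 0.102), and at 0.13 without Vehicle 5. Plec was at -0.81 without that library (adjusted p = 0.0831). Without Young 1 or without Young 2, Klk10 was the one gene called in the 6 lists. Between ABT-737 and Vehicle 0 genes were called in these 6 lists, with medians of -0.44, -0.42, -0.34, 0.14, 0.29 and -1.38 for enzymes, lipid genes, differentiation genes, plaque, transcription factors and activated genes. Between ABT-737 and Young Klk10, Pnpla1, Zfp750, Prdm1 and Grhl1 rose and Plec fell.

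Markers of other cells in the skin differed between the same groups. All 8 tested leukocyte markers rose in Vehicle against Young skin, and their sum was 404 to 1370 CPM in Young, 3810 to 4730 CPM in Vehicle and 1000 to 2460 CPM in ABT-737 skin. Skeletal muscle markers summed to 63600 to 91300 CPM in Young, 9610 to 44800 CPM in Vehicle and 16000 to 52500 CPM in ABT-737 skin, and 1 of the 9, Myh1, fell (-2.20, adjusted p = 0.0352). Of 9 sebaceous gland markers 3 rose, of 9 dermal fibroblast markers 3 rose, and of 11 basal keratinocyte markers 1, Col17a1, fell. Among 8 inner root sheath and 15 hair shaft markers 0 were called, with medians of 5.72 and 4.78. The part of these differences in the member calls was not tested.

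Outside skin most of the genes were not detected at this depth. Of the 54 genes 36 had 0 counts in every kidney library, 48 in liver and 41 in lung. Kidney libraries held 1431814 to 3513311 counts, liver libraries 223957 to 891116 and lung libraries 1046508 to 2600092. The genes that passed the filter were Tchh, Tchhl1, Sprr1a and Dsg2 in kidney, Dsg2 and Dsc2 in liver and Tchh and Dsg2 in lung. The levels are from a separate table and were not compared with those of skin. Inner root sheath markers summed to at most 0.514 CPM in kidney and were at 0 in every lung library.

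In kidney 1 of the 4 genes, Tchh, fell in Vehicle against Young mice, where 5.5% of all genes fell and 13.3% changed in either direction. It was at 13.3, 14.1, 16.1 and 17.5 CPM in Young, 7.85, 4.79 and 6.10 CPM in Vehicle and 23.6, 16.3 and 10.9 CPM in ABT-737 kidneys, on 7 to 55 counts a library. The Vehicle libraries lay below all others. Between Vehicle and Young its log2 fold change was -1.23 (SE 0.29, adjusted p = 0.0111), and without Vehicle 5 the adjusted p was 0.0524. Between ABT-737 and Vehicle Tchh rose by 1.39 (SE 0.32, adjusted p = 0.0369), where 0.135% of all genes rose and 1.35% changed. This call was held in 2 of the 10 fits that left out 1 library, without Vehicle 3 and without ABT-737 5, and was lost in the fits of only these groups (adjusted p = 0.144) and with the replicate number as a block (adjusted p = 0.174). Leukocyte markers moved with it in the other direction, at 902 to 1400 CPM in Young, 4520 to 7650 CPM in Vehicle and 1580 to 2350 CPM in ABT-737 kidneys, and their part in the result was not tested. Sprr1a, Dsg2 and Tchhl1 were not called, with log2 fold changes of -0.21, -0.51 and 0.46 between Vehicle and Young and -0.59, -0.53 and 0.83 between ABT-737 and Vehicle.

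In liver Dsg2, a desmosomal cadherin of simple epithelia, fell in Vehicle against Young mice, 1 of the 2 genes tested, where 10.8% of all genes fell and 22.6% changed. It was at 31.0, 40.2, 55.3 and 30.7 CPM in Young, 13.1, 15.2 and 19.3 CPM in Vehicle and 19.8, 13.3 and 14.9 CPM in ABT-737 livers. All old libraries were below all young ones, on 3 to 36 counts a library. This was a log2 change of -1.26 (SE 0.32, adjusted p = 0.0115), and without Vehicle 4 the adjusted p was 0.0547. Leukocyte markers summed to 242 to 409 CPM in Young, 1880 to 4630 CPM in Vehicle and 345 to 723 CPM in ABT-737 livers. Of the 12, all 4 that were tested rose between Vehicle and Young, with a median of 3.34, and their part in the difference of Dsg2 was not tested. Between ABT-737 and Vehicle it was -0.11 (SE 0.43, adjusted p = 0.952). Dsc2 was at 25.2, 32.8, 35.3 and 17.3 CPM in Young, 0, 21.1 and 12.8 CPM in Vehicle and 19.8, 20.9 and 9.90 CPM in ABT-737 livers, and its groups overlapped (-0.95, SE 0.45, adjusted p = 0.139). Between ABT-737 and Vehicle 0 of the 2 genes were called, by edgeR or by DESeq2, and 0 had an unadjusted p under 0.05. Of all genes 3.85% were called, and 6.75% and 9.35% were higher and lower at that unadjusted p.

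In lung 0 of the 2 genes were called between Vehicle and Young, where 12.9% of all genes changed, nor between ABT-737 and Vehicle, where 0% did. At an unadjusted p under 0.05, 0 differed between Vehicle and Young, also by DESeq2, against 16.6% of all genes higher and 13.2% lower, and both were higher with ABT-737, against 9.52%. Dsg2 was at 7.36, 5.56, 3.26 and 5.20 CPM in Young, 6.71, 6.86 and 2.62 CPM in Vehicle and 18.7, 10.5 and 25.9 CPM in ABT-737 lungs. The ABT-737 libraries lay above all others, at a log2 fold change from Vehicle of 1.83 (SE 0.47, unadjusted p = 0.00152, adjusted p = 0.121 by edgeR's quasi-likelihood test). DESeq2 called it (adjusted p = 0.0436), as did the fit without the expression filter (adjusted p = 0.0486) and the fit without ABT-737 4 (adjusted p = 0.016). Tchh was at 1.96, 1.39, 1.63 and 3.12 CPM in Young, 4.70, 6.00 and 3.74 CPM in Vehicle and 20.6, 2.11 and 10.3 CPM in ABT-737 lungs. Every Vehicle library was above every Young one, at 1.20 (SE 0.62, adjusted p = 0.215), and the ABT-737 libraries spread over both. ABT-737 4 held 6240 CPM of adipocyte markers against 74.4 to 245 CPM in the other lung libraries and was also the lowest of its group for both genes.

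**Figure D5:**
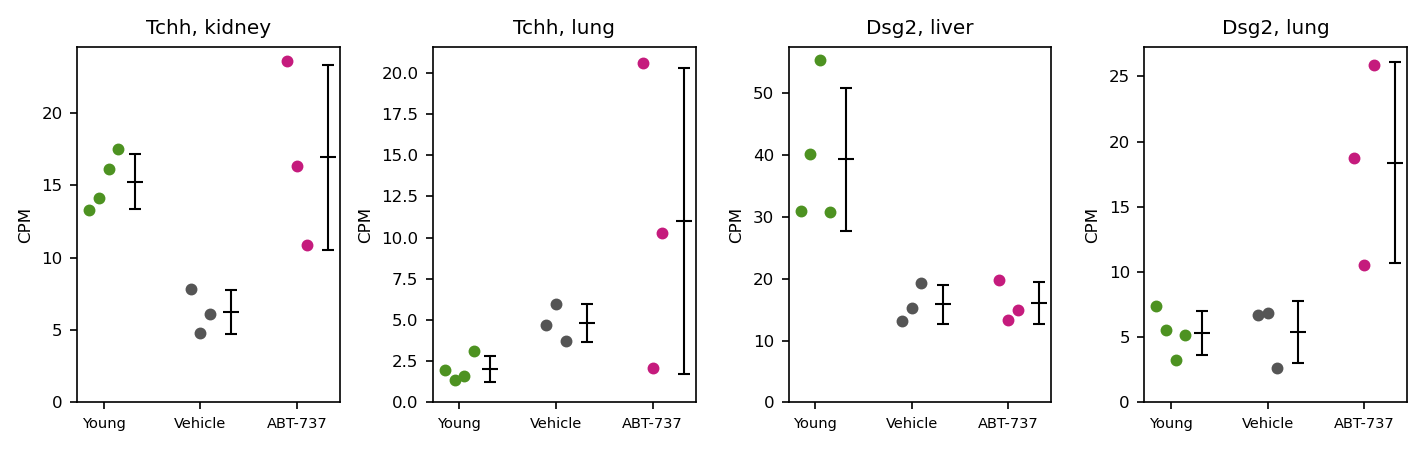
CPM of Tchh in kidney and lung and of Dsg2 in liver and lung, 1 point per library, with the mean and SD of 4 Young, 3 Vehicle and 3 ABT-737 libraries. Tchh is lowest in Vehicle kidneys, Dsg2 is lower in old than in young livers, and Dsg2 is highest in ABT-737 lungs.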

How the data were processed

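RNA of whole tissue was made into pooled 3′-end libraries by a bulk derivation of MARS-seq. The authors deposited raw counts for each gene, not normalized, in 1 table for skin and 1 for the other tissues. The submitters' processing notes name bcl2fastq, HISAT 0.1.5, HOMER and mm10. Collapsing of reads by molecule barcode and the use of strand are not given in the sources used here, so counts may not be independent molecules. Of the 56 gene models in skin, 52 reached 2000 bases past the annotated 3′ end.

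Tests used edgeR 4.0.16 under R 4.3.3 (filterByExpr, TMM, quasi-likelihood test, all groups of a tissue in 1 fit), and Benjamini-Hochberg adjusted p-values were taken over all genes tested. DESeq2 1.42.0 and other settings served as alternatives. The method was tested on simulated counts that held no deviating library such as Vehicle 5, so that test does not bear on the dependence on single libraries. Groups came from sample titles, since the treatment labels of ABT-737 replicates 4 and 5 carry other numbers. The genes and lists were chosen with earlier results of these data known. Named were genes with an adjusted p under 0.05 in any comparison, up to 5 per role with the highest mean CPM in skin, the genes tested in other tissues, and up to 4 called genes per list. Lce3e, Lce3c, Lce3d, Sprr2e, Dsg1b, Dsc2, Dsg4 and Tgm1 were named after their values were seen. Deviations of same-numbered Vehicle and ABT-737 libraries were all positively correlated in lung alone, at 0.18, 0.30 and 0.43. Vehicle 4 correlated as highly with ABT-737 3 (0.30) as with ABT-737 4 there, so these values do not establish pairs. The block changed no member call in lung.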

Additional observations from a re-analysis of the deposited data

Results flagged for a closer look

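The difference between Vehicle and Young for Tchh, -1.23 in kidney and 1.20 in lung, differed between these organs by an interaction term in 1 fit of kidney, liver and lung. The log2 fold change in kidney minus that in lung was -2.44 (SE 0.67, adjusted p = 0.0236 by edgeR's quasi-likelihood test over 13107 genes). Such terms were fitted for every member tested there, for each pair of organs and both comparisons, each adjusted on its own. This was the only one of them with an adjusted p under 0.05, and it is given for that reason. Kidney libraries held 7 to 55 counts of Tchh, and Young and Vehicle lung libraries 2 to 14. The difference was -2.41 without kidney Vehicle 5 (adjusted p = 0.0526) and -2.29 without kidney Vehicle 4 (adjusted p = 0.0641). Over kidney, liver and lung, 8 sets, each holding the levels of 1 tested gene in the 4 Young libraries of a tissue, were searched for a single deviating library, and 0 were found.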

How the results depend on the processing

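With 3 libraries a group the number of calls depended on the setting. In skin between Vehicle and Young, 13 members were called, against 35 of 55 with no filter beyond 1 count, 20 of 55 by DESeq2 and 5 of 21 with close paralogs summed, and 0 to 18 when 1 library was left out. The calls without the filter included Lce3e, Sprr2d and Sprr2e, with 98.6%, 98.6% and 100% of their skin counts in Vehicle 5. The share of all genes called is not given for these settings, so the counts do not show a wider change of the members. Between ABT-737 and Vehicle the count was 0, against 2 without the filter and 4 by DESeq2, and 0 to 0 without 1 library. Between ABT-737 and Young it was 3, against 10 without the filter, 9 in a fit of only these groups, 9 by DESeq2 and 0 to 10 without 1 library. For these counts too the share of all genes is not given. The filter and the paralog sums change which genes are tested. The cause of the other changes was not tested. Repetin, at -3.13 between ABT-737 and Vehicle, ranged from -3.70 without Vehicle 4 to 0.31 without Vehicle 5. In kidney the single call between Vehicle and Young became 0 with at least 10 counts in every library and ranged from 0 to 1 without 1 library. The kidney call between ABT-737 and Vehicle became 0 with that filter, 0 with only these groups, 0 with the replicate block, and 0 to 1 without 1 library. In liver the call became 0 under that filter, which left no member to test, and ranged from 0 to 1. In lung Dsg2 made 1 call without the filter and 1 by DESeq2, and 0 to 1 without 1 library. The kidney minus lung difference of Tchh ranged from -2.72 to -2.24 without 1 library. Same-numbered Vehicle and ABT-737 libraries did not deviate together in skin (-0.57, -0.58 and 0.27), and the labels do not say that equal numbers mark a pair. The block changed 0 member calls in skin, liver and lung. Depth limits the Lce3 and Sprr2 genes and all members outside skin.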
